A study of Homo sapiens with 12 samples.

Results

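The data described here are 6 TT-seq libraries of parental U2OS cells, a human osteosarcoma line, out of 12 libraries in the series. They were taken by their labels: 3 libraries of cells transfected with a control siRNA (siCtrl) and 3 of cells transfected with an siRNA against INTS11 (siINTS11), each collected at 48 h post transfection. These cells carry no inducible nuclease and received no drug in the labels. The other 6 libraries, from U2OS-AsiSI cells with the same siRNAs and 4-hydroxytamoxifen (OHT) for 1 h, enter only where a difference between the lines was tested. The labels number the libraries 1 to 3 in each group but do not say that they come from separate cultures, so the p-values measure the spread between these libraries, which may be technical. Bulk RNA was used, so less RNA per cell and fewer cells of a kind cannot be told apart.

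Integrator is a large complex that joins RNA polymerase II near the start of genes. Its INTS11 subunit is an endonuclease that cuts the nascent RNA, and the complex also carries a phosphatase module. It was first known for making the 3′ ends of small nuclear RNAs (snRNAs), and it also ends transcription early at many protein-coding genes, enhancers and long non-coding RNA (lncRNA) genes. TT-seq labels RNA for a few minutes with 4-thiouridine, fragments it and captures the labelled pieces, so its reads reflect RNA made in that time, introns included, rather than the store of mature RNA. The comparison asks which genes were transcribed more or less after the nuclease subunit was depleted in cells without induced DNA breaks.

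The 3 siCtrl libraries held 29597323, 38065726 and 31525340 counted reads, and the 3 siINTS11 libraries held 31743963, 29397678 and 30743023. No yeast spike-in counts were used here, so a change in the total amount of new RNA per cell is not measured, and every change is relative to the bulk of the genes (scaling by trimmed mean of M values, TMM, in edgeR). Scaled levels are given in CPM, counts divided by the scaled library size, and a gene was called when edgeR's quasi-likelihood test gave a Benjamini-Hochberg adjusted p under 0.05 over all 20687 genes tested. With library totals alone as the scale, the median log2 fold change of all genes moved from 0.02 to 0.22 and the share of calls that were higher from 51.6% to 74.3%, so small falls depend on the scaling. The identity of the cells was checked on gene lists. RUNX2, the master transcription factor of bone-forming cells, had 426, 439 and 428 CPM after siCtrl and 220, 250 and 253 after siINTS11. Of the 23 listed osteoblast-lineage genes, 4 (BGLAP, DLX5, DLX6 and OMD) were at 0 reads in all 6 libraries. A mean under 10 counts was found for 8 of the 23, so the list shows the bone lineage only in part.

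INTS11 itself (chr1:1311585-1324691, hg38) had 10, 8.74 and 9.88 CPM after siCtrl and 7.57, 6.81 and 6.97 after siINTS11. The groups did not overlap, and the difference passed the test (log2 fold change -0.42, SE 0.09, edgeR adjusted p = 6.08e-05). INTS11 shares its strand with an overlapping gene, and reads there may belong to either; a count of newly made RNA over the whole gene is also not a measure of the mature transcript that an siRNA targets, so the depth of the depletion is not given by these data.

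Of the 15 Integrator subunits, 11 were called, 5 higher and 6 lower (9 higher and 1 lower with library totals alone), beside 66.9% of all genes called, 34.5% higher and 32.4% lower. INTS13, a member of the module with INTS10 and INTS14, had 40.1, 40.3 and 40.9 CPM after siCtrl and 56.5, 55.7 and 59.3 after siINTS11 (log2 fold change 0.50, SE 0.04, edgeR adjusted p = 4.73e-13). The gene C7orf26, which encodes the subunit also known as INTS15, had 52.3, 49.8 and 47.8 CPM after siCtrl and 71, 72.4 and 67.1 after siINTS11 (log2 fold change 0.49, SE 0.04, edgeR adjusted p = 5.98e-13). INTS6, which links the complex to its phosphatase, had 152, 148 and 162 CPM after siCtrl and 172, 175 and 184 after siINTS11 (log2 fold change 0.20, SE 0.04, edgeR adjusted p = 3.31e-05). In these 3 genes every siINTS11 library lay above every siCtrl library. INTS5 (log2 fold change 0.34) and INTS2 (0.16) were also called higher. INTS1 (-0.23), INTS8 (-0.18), INTS12 (-0.16), INTS4 (-0.13) and INTS9 (-0.12), the last a catalytically inactive partner of INTS11, were called lower, although INTS1 libraries of the 2 groups overlapped. INTS3, INTS7, INTS10 and INTS14 did not pass the test (log2 fold changes from -0.13 to -0.04). Of these, INTS3 held only 32 to 46 counts per library (SE 0.21) and shares its strand with an overlapping gene, so it was too sparsely read to be called unchanged. The list's median was -0.07, and with library totals alone it was 0.13, so no common direction can be given to the complex. INTS4, INTS8, INTS9 and INTS12 turned to small positive values with library totals alone.

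At the level of all genes, many small differences passed the test: the median absolute log2 fold change among called genes was 0.50, and 14368 of the genes tested (69.5%) had no overlap between the 3 siCtrl and 3 siINTS11 values. Larger changes were mostly rises. At least 4-fold, 331 genes rose and 54 fell, and at least 8-fold 70 rose and 3 fell. Rises of at least 2-fold made up 9.62% of genes tested and falls 3.24%. Much of that surplus lay in sparsely read genes: among genes with a mean of at least 50 counts over the 6 libraries, 734 rose and 415 fell by 2-fold or more, and of the protein-coding ones 314 rose and 288 fell. Of the genes that rose 2-fold, 45 had at most 3 counts in every siCtrl library, and their fitted fold changes depend on the prior count. These 45 passed the low-count filter through the siINTS11 group, while 0 genes tested had at most 3 counts in every siINTS11 library.

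Protein-coding genes and other genes moved differently. Of 14015 protein-coding genes tested, 3934 were higher and 5479 lower, with a median log2 fold change of -0.05. Of the 6672 genes of other types, 3206 were higher and 1227 lower, with a median of 0.32. Non-coding genes made up 63.6% of the 2-fold rises and 44.4% of the 2-fold falls, against 32.3% of the genes tested. Of 2284 lincRNA genes 1140 were higher and 444 lower (median 0.37), and of 1969 antisense genes 1088 were higher and 258 lower (median 0.42). Processed pseudogenes were more often lower, with 54 of 256 higher and 73 lower, and reads in them may come from their parent genes.

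Protein-coding genes that rose 2-fold had few reads to begin with. Their median siCtrl level was 0.0192 CPM per kb of gene, against 0.182 for those that fell 2-fold and 0.834 for all protein-coding genes. The siCtrl level also enters the fold change, so a low level goes in part with being called a riser. Over the 6 libraries the 3 medians were 0.0404, 0.126 and 0.817. In the lowest decile of protein-coding genes by level per kb over the 6 libraries, 22.1% rose and 5.56% fell by 2-fold, while in the highest decile 0.285% rose and none of 1402 fell. Genes in the lowest decile could also pass the low-count filter through the siINTS11 group. Of the 1402 genes in that highest decile, 1335 were read at over 0.1 reads per base. Whether dense reading narrows their differences was not tested. Genes that fell were long: the median span was 105 kb for those that fell 2-fold, 35.1 kb for those that rose 2-fold and 39 kb overall. In the decile of shortest genes, up to 6.78 kb, 34.8% were higher and 11.9% lower (median log2 fold change 0.10), and in the decile of longest genes, from 202 kb, 18.5% were higher and 65.2% lower (median -0.29). Across 14015 protein-coding genes, span and log2 fold change had a Spearman correlation of -0.34, and across the third of genes with the highest level it was -0.53 (n = 4672). These are correlations across genes that share the same 6 libraries, so they are descriptions without a p-value, and counts over a whole span weigh the body of a long gene more than its start.

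**Figure D1:**
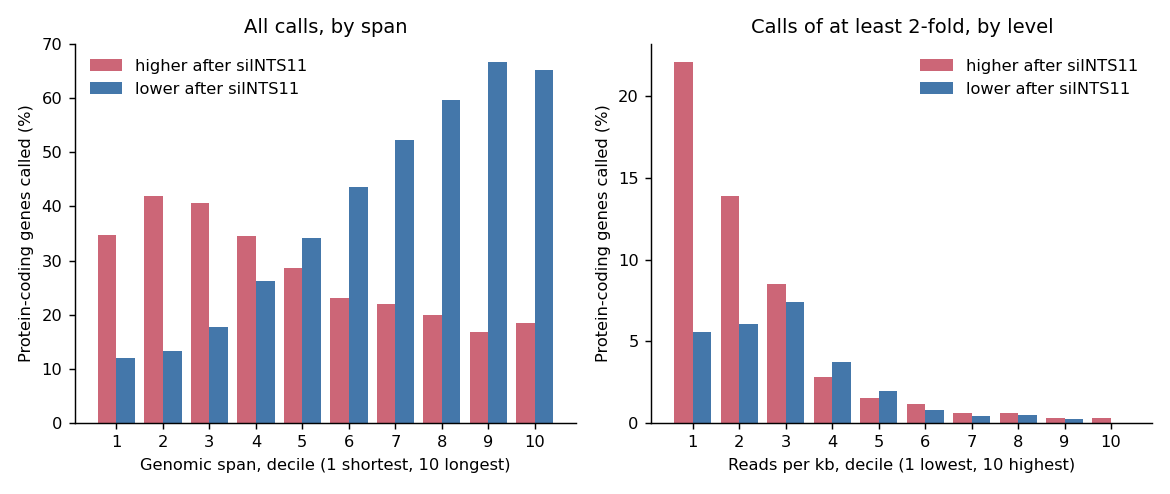
Left, the percentage of protein-coding genes called higher or lower (edgeR, adjusted p under 0.05) in each decile of genomic span. Right, the percentage that rose or fell by at least 2-fold in each decile of reads per kb over the 6 libraries. Calls of lower genes go from 11.9% in the shortest decile to 65.2% in the longest, and 2-fold rises from 22.1% in the lowest level to 0.285% in the highest. In the highest level decile 1335 of 1402 genes were read at over 0.1 reads per base, and an effect of this was not tested.

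The 10 largest rises among protein-coding genes with at least 100 counts on average after siINTS11 were of genes weakly read in siCtrl cells, at 8.46 CPM or less in every siCtrl library. SH2D2A, an adaptor of T-cell signalling, had 0.0722, 0.223 and 0.242 CPM after siCtrl and 3.58, 4.03 and 3.87 after siINTS11 (log2 fold change 4.35, SE 0.23, edgeR adjusted p = 3.51e-20). LAPTM5, a lysosomal membrane protein best known in blood cells, had 0.253, 0.223 and 0.242 CPM after siCtrl and 4.69, 3.4 and 3.56 after siINTS11 (log2 fold change 4.01, SE 0.23, edgeR adjusted p = 1.84e-19). EXOC3L2, related to a subunit of the exocyst, had 0.325, 0.39 and 0.207 CPM after siCtrl and 5.36, 4.6 and 4.64 after siINTS11 (log2 fold change 3.94, SE 0.20, edgeR adjusted p = 2.54e-21). In siCtrl these 3 genes had between 2 and 14 counts per library and in siINTS11 between 108 and 184, with no overlap. HKDC1, a hexokinase family member, had 4.62, 4.37 and 4.21 CPM after siCtrl and 38.4, 35.2 and 36 after siINTS11 (log2 fold change 3.05, SE 0.07, edgeR adjusted p = 1.81e-32). SLCO2B1, an uptake transporter of organic anions, had 3.5, 2.51 and 3.52 CPM after siCtrl and 27.8, 28.4 and 30.6 after siINTS11 (log2 fold change 3.21, SE 0.09, edgeR adjusted p = 7.1e-30). SP140, a chromatin reader of nuclear bodies mostly known in lymphocytes, had 5.89, 6.13 and 8.46 CPM after siCtrl and 42.9, 41.2 and 41.3 after siINTS11 (log2 fold change 2.62, SE 0.08, edgeR adjusted p = 1.16e-24). The groups lay far apart in each of these. The remaining genes of the 10 were STC2, a secreted glycoprotein hormone (3.06), KISS1, the precursor of kisspeptins (3.16), MAMDC2 (3.27) and COL15A1, a basement membrane collagen (2.68), each given as a log2 fold change with all siINTS11 libraries above all siCtrl libraries.

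Rises of 2-fold or more were rare among well-read protein-coding genes. Among 5919 genes with a mean of at least 1000 counts in the lower group, 910 were higher and 3469 lower, 4 rose 2-fold or more and 89 fell 2-fold or more (median log2 fold change -0.15). CROCC, which encodes the ciliary rootlet protein rootletin, had 35.7, 31.1 and 32.4 CPM after siCtrl and 92, 95.8 and 95.8 after siINTS11 (log2 fold change 1.52, SE 0.05, edgeR adjusted p = 7.94e-29); it has near-identical copies in the genome and shares its strand with another gene, so its reads are uncertain. PTCHD4, a patched-domain protein, had 54.3, 59 and 64.4 CPM after siCtrl and 139, 152 and 149 after siINTS11 (log2 fold change 1.31, SE 0.05, edgeR adjusted p = 2.7e-22). SLC7A11, the cystine importer, had 62.8, 66.4 and 62.6 CPM after siCtrl and 149, 146 and 152 after siINTS11 (log2 fold change 1.22, SE 0.04, edgeR adjusted p = 2.2e-27). No siCtrl library reached a siINTS11 library in these genes. INKA2, an inhibitor of a p21-activated kinase, had 42.5, 40.5 and 41.1 CPM after siCtrl and 84.1, 84.9 and 85.6 after siINTS11 (log2 fold change 1.04, SE 0.04, edgeR adjusted p = 3.11e-24). DOCK4, an activator of Rac, had 193, 198 and 225 CPM after siCtrl and 399, 412 and 418 after siINTS11 (log2 fold change 1.00, SE 0.05, edgeR adjusted p = 2.12e-21). The groups did not overlap, and DOCK4 fell just short of 2-fold and so is not among the 4.

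The largest falls included genes that siCtrl cells transcribed at a moderate to high level. TOX3, an HMG-box transcription regulator, had 77.4, 75.1 and 74.6 CPM after siCtrl and 8.24, 9.71 and 9.91 after siINTS11 (log2 fold change -3.03, SE 0.06, edgeR adjusted p = 7.71e-36). NYAP2, a neuronal adaptor of phosphoinositide 3-kinase, had 39.1, 39.3 and 34 CPM after siCtrl and 5.21, 4.38 and 5.94 after siINTS11 (log2 fold change -2.86, SE 0.08, edgeR adjusted p = 4.2e-27). GUCY1A2, a subunit of the nitric oxide receptor guanylyl cyclase, had 292, 302 and 265 CPM after siCtrl and 59, 56.7 and 60.9 after siINTS11 (log2 fold change -2.28, SE 0.05, edgeR adjusted p = 1.28e-34). Every siINTS11 value of these 3 genes was far under the lowest siCtrl value. COL11A1, a minor fibrillar collagen of cartilage and bone tumours, had 97.2, 100 and 94.3 CPM after siCtrl and 19.8, 18.6 and 19.6 after siINTS11 (log2 fold change -2.33, SE 0.05, edgeR adjusted p = 7.4e-35). XKR4, of the family of phospholipid scramblases, had 163, 163 and 156 CPM after siCtrl and 37.1, 38.2 and 40.8 after siINTS11 (log2 fold change -2.05, SE 0.04, edgeR adjusted p = 1.42e-34). ROR1, a receptor-like kinase that binds WNT5A, had 318, 319 and 329 CPM after siCtrl and 83, 93 and 94.4 after siINTS11 (log2 fold change -1.84, SE 0.04, edgeR adjusted p = 3.63e-32). The 2 groups were again apart in all of them. GSG1L, an auxiliary AMPA receptor subunit (-2.44), NECAB1 (-2.28), PDGFRL (-2.27), the guidance ligand SEMA3D (-2.22) and VSTM2L (-2.13) completed the 10 largest falls on the log2 scale, and TMEM45A (-1.71) and the collagen prolyl hydroxylase P3H2 (-1.69) the 5 largest falls of well-read genes.

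**Figure D2:**
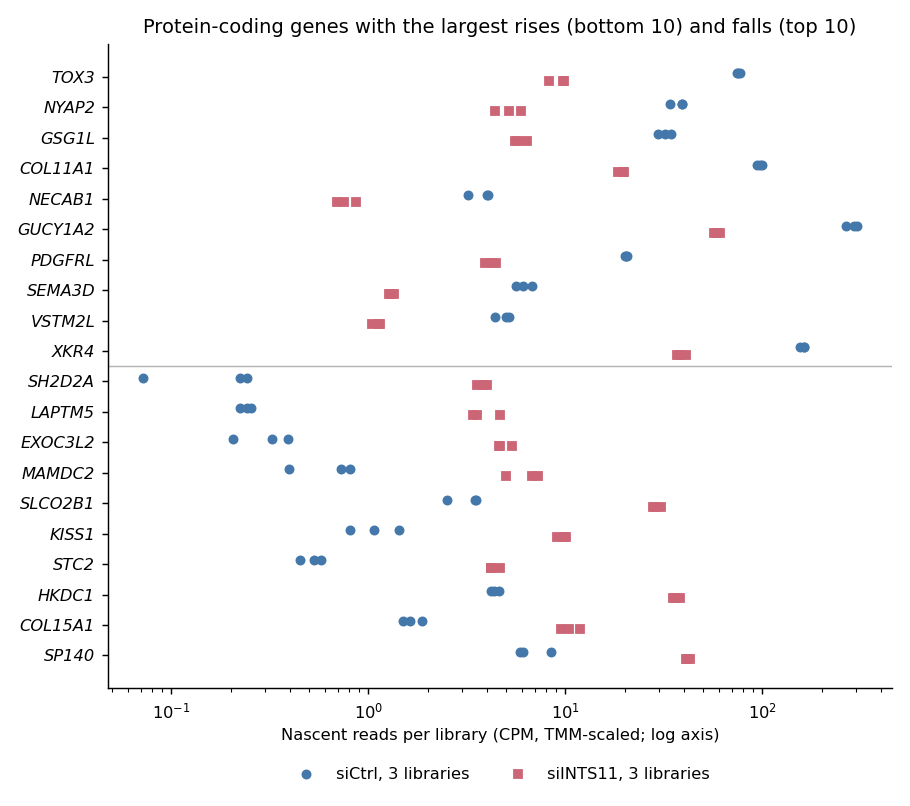
Scaled nascent reads (CPM, log axis) of the 10 protein-coding genes with the largest falls (top) and the 10 with the largest rises (bottom), 1 point per library, 3 siCtrl and 3 siINTS11 libraries. The genes were chosen among those without overlap between the groups. The siCtrl values of SH2D2A lie at 0.242 CPM or under, and those of TOX3 at 74.6 CPM or above.

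Genes of the bone lineage and the extracellular matrix were mixed. The counts of this and later lists of coding genes stand beside 28.1% higher and 39.1% lower over all protein-coding genes tested. Of 15 osteoblast-lineage genes tested, 4 were higher and 9 lower (median -0.25, and -0.05 with library totals alone), and their summed level was 1923, 1892 and 1918 CPM after siCtrl and 1231, 1285 and 1304 after siINTS11. RUNX2 fell (log2 fold change -0.84, SE 0.04, edgeR adjusted p = 3.91e-20). FGFR2, a growth factor receptor of bone progenitors, had 129, 128 and 138 CPM after siCtrl and 76.5, 86.8 and 85.4 after siINTS11 (log2 fold change -0.67, SE 0.04, edgeR adjusted p = 6.86e-17). COL5A1, a fibrillar collagen chain, had 463, 454 and 484 CPM after siCtrl and 173, 190 and 179 after siINTS11 (log2 fold change -1.37, SE 0.04, edgeR adjusted p = 2.53e-28). COL5A2, its partner chain, had 113, 114 and 111 CPM after siCtrl and 48.9, 46.2 and 49.9 after siINTS11 (log2 fold change -1.23, SE 0.04, edgeR adjusted p = 3.92e-27). All 4 genes were lower in every siINTS11 library. The opposite direction was taken by ALPL, the bone alkaline phosphatase, and SPP1, osteopontin, which rose (log2 fold changes 1.47 and 2.41); these 2 were chosen for mention after their values were seen. Of 38 collagen genes, 15 were higher and 17 lower with a median of -0.00, from -2.33 for COL11A1 to 2.68 for COL15A1. Of 22 ADAMTS proteases and relatives, 8 were higher and 8 lower. ADAMTS2, which trims procollagen, had 25.8, 23.7 and 25.9 CPM after siCtrl and 8.68, 9.14 and 9.47 after siINTS11 (log2 fold change -1.46, SE 0.07, edgeR adjusted p = 2.82e-22). ADAMTS6 had 460, 437 and 453 CPM after siCtrl and 235, 245 and 264 after siINTS11 (log2 fold change -0.86, SE 0.04, edgeR adjusted p = 3.74e-21). Both were lower in every siINTS11 library.

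Mesenchymal genes, the broader class of U2OS, had 6 of 14 higher and 4 lower. N-cadherin (CDH2) had 497, 452 and 494 CPM after siCtrl and 307, 320 and 334 after siINTS11 (log2 fold change -0.59, SE 0.04, edgeR adjusted p = 1.85e-15). PDGFRB, a receptor for platelet-derived growth factor, had 48.8, 44.2 and 41.7 CPM after siCtrl and 76.6, 78.2 and 77.9 after siINTS11 (log2 fold change 0.79, SE 0.05, edgeR adjusted p = 8.25e-19). NT5E, the ecto-nucleotidase CD73, had 0.289, 0.195 and 0.518 CPM after siCtrl and 2.5, 2.93 and 2.85 after siINTS11 (log2 fold change 3.07, SE 0.23, edgeR adjusted p = 1.6e-15). The groups were apart in the 3 genes, CDH2 lower and the others higher. The metastasis-associated S100A4 (0.97) and endoglin, ENG (0.64), were also higher on the log2 scale.

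Markers of epithelial, leukocyte and endothelial cells were at low summed levels, and more of the tested ones were higher than lower. Of 9 epithelial genes tested 8 were higher and none lower, of 12 keratins 8 and 1, of 12 leukocyte genes 7 and 3, and of 10 endothelial genes 7 and 2; medians were 0.42, 0.49, 0.65 and 0.51. The summed levels stayed low: for the 18 listed epithelial genes 104, 95.1 and 96.7 CPM after siCtrl and 126, 130 and 124 after siINTS11, for the 24 leukocyte genes 27, 26.5 and 25.9 CPM after siCtrl and 30.5, 28.1 and 27.9 after siINTS11, and for the 13 endothelial genes 86.5, 84.2 and 85 CPM after siCtrl and 89.2, 94.7 and 95 after siINTS11. At 0 in all 6 libraries were 1 of the 18 epithelial genes, CLDN7, and 5 of the 24 leukocyte genes, CD3E, CD2, CD79B, TYROBP and NKG7. Other members were read: CLDN4, an epithelial claudin, had 9.64, 8.24 and 7.39 CPM after siCtrl and 16.6, 15.9 and 15.8 after siINTS11 (log2 fold change 0.94, SE 0.08, edgeR adjusted p = 8.31e-14). LCP1, an actin-bundling protein of leukocytes, had 2.96, 2.62 and 2.35 CPM after siCtrl and 5.71, 4.47 and 4.98 after siINTS11 (log2 fold change 0.94, SE 0.12, edgeR adjusted p = 1.11e-08). Both were higher in every siINTS11 library. KRT79, a keratin, had 0.325, 0.223 and 0.173 CPM after siCtrl and 2.91, 2.87 and 3.25 after siINTS11 (log2 fold change 3.64, SE 0.23, edgeR adjusted p = 7.06e-18). KRT15, a basal keratin, had 2.38, 1.87 and 2.14 CPM after siCtrl and 6.96, 7.91 and 7.34 after siINTS11 (log2 fold change 1.81, SE 0.12, edgeR adjusted p = 2e-17). ROBO4, an endothelial guidance receptor, had 1.37, 1.48 and 1.87 CPM after siCtrl and 7.83, 9.04 and 8.42 after siINTS11 (log2 fold change 2.42, SE 0.12, edgeR adjusted p = 5.45e-21). No group overlapped in these. PECAM1 (1.65) and VWF (0.82) were higher, and ESAM (-0.95) and the leukocyte integrin ITGB2 (-0.99) lower, as log2 fold changes. Only 9 of 18 listed epithelial, 12 of 24 leukocyte and 10 of 13 endothelial genes passed the low-count filter, so the counts describe the tested members and not all that were listed. The filter also keeps a gene that is near-silent after siCtrl but read after siINTS11. Members at low levels could thus be tested because they rose, so the surplus of higher members is not free of the filter.

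Genes of inflammatory and interferon signalling are described with their promoter sequences, which show what the members share. NF-kappaB dimers bind a short element in the promoters of cytokine genes, and interferon-regulated factors bind the interferon-stimulated response element (ISRE). RefSeq windows from 250 bases before to 50 after each gene's start were read (GRCh38.p14), and a gene counted if any of its windows matched. The letters GGNNTTTCC (kappaB, either strand) stood in 14 of 18 NF-kappaB genes with a window, against 8.85% of the 12172 tested genes with a window. The ISRE letters, GAAA and GAAA with any 2 bases between them (either strand), stood in 17 of 22 interferon-stimulated genes, against 3.92% of those tested genes. A match describes the letters only, not binding. The 250 bases before the start are shown for the 2 members of each list that were called higher with the smallest adjusted p among those holding the letters, with the matches in capitals. CXCL8 lies at chr4:73740319-73740568 (+ strand) and CCL20 at chr2:227813592-227813841 (+ strand), with 1 match each; IFI6 lies at chr1:27672193-27672442 (- strand) with 3 and OAS3 at chr12:112938224-112938473 (+ strand) with 2.
CXCL8: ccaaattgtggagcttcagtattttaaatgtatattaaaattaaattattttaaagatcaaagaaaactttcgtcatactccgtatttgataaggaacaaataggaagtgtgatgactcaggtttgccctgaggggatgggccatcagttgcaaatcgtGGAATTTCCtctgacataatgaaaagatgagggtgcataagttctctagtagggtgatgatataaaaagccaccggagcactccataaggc
CCL20: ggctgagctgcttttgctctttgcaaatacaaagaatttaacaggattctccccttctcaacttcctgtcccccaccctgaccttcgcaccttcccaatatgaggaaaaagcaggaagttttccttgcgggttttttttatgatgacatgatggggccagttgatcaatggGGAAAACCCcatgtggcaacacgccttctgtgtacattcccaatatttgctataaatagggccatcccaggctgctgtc
IFI6: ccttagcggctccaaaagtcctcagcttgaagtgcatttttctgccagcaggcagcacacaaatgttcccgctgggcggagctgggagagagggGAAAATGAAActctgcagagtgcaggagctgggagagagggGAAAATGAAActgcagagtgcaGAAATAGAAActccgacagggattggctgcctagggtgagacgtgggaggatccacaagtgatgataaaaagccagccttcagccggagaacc
OAS3: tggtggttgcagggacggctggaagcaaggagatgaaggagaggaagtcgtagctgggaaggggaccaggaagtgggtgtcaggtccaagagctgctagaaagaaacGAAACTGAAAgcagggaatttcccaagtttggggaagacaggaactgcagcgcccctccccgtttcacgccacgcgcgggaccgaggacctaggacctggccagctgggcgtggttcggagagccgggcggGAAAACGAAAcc

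Of 23 NF-kappaB inflammatory genes tested, 16 were higher and 2 lower, with a median log2 fold change of 0.53 beside 0.02 for all genes. The chemokine gene CXCL8 had 2.42, 1.67 and 1.14 CPM after siCtrl and 8.79, 7.75 and 8.58 after siINTS11 (log2 fold change 2.27, SE 0.14, edgeR adjusted p = 3.67e-16). CCL20, a chemokine for CCR6-bearing cells, had 6.1, 5.18 and 5.04 CPM after siCtrl and 12.9, 12.8 and 14.5 after siINTS11 (log2 fold change 1.30, SE 0.09, edgeR adjusted p = 7.04e-17). BIRC3, an inhibitor of apoptosis and a feedback target, had 7.69, 5.62 and 6.22 CPM after siCtrl and 14.1, 14.5 and 14.3 after siINTS11 (log2 fold change 1.15, SE 0.09, edgeR adjusted p = 3.35e-15). In both chemokine genes and in BIRC3 the lowest siINTS11 library lay above the highest siCtrl library. IL11, a cytokine of the interleukin family, had 6.32, 5.26 and 5.04 CPM after siCtrl and 11.5, 12.2 and 10.4 after siINTS11 (log2 fold change 1.04, SE 0.09, edgeR adjusted p = 2.9e-13). Its groups were apart as well. Of the 14 members with the kappaB letters 10 were higher and 1 lower (median 0.52), and of the 4 without them 3 were higher and none lower (median 1.15). The members called lower were NFKB1 and LIF (log2 fold changes -0.16 and -0.16), named because they were the only ones.

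Of 29 interferon-stimulated genes tested, 15 were higher and 2 lower (median 0.39). IRF1, a transcription factor that the interferon and NF-kappaB routes both induce, had 20.1, 19 and 18 CPM after siCtrl and 34.2, 33 and 32.1 after siINTS11 (log2 fold change 0.80, SE 0.06, edgeR adjusted p = 3.6e-16). IFI6, an antiapoptotic mitochondrial protein, had 1.77, 1.45 and 1.59 CPM after siCtrl and 4.34, 5.1 and 3.96 after siINTS11 (log2 fold change 1.49, SE 0.14, edgeR adjusted p = 2.17e-12). OAS3, a sensor that makes oligoadenylate on double-stranded RNA, had 3.72, 3.17 and 3.11 CPM after siCtrl and 6.58, 6.52 and 6.5 after siINTS11 (log2 fold change 0.98, SE 0.11, edgeR adjusted p = 1.24e-10). The siINTS11 libraries of these genes were all above the siCtrl libraries, IFI6 and OAS3 at low levels. DDX58, the RNA sensor RIG-I, had 43.9, 45 and 45.8 CPM after siCtrl and 60.8, 56.1 and 59.4 after siINTS11 (log2 fold change 0.39, SE 0.04, edgeR adjusted p = 4.7e-10). DDX58 was higher too, by a smaller step and without overlap. Members with the ISRE letters had a median of 0.53 (9 of 17 higher, 2 lower) and the 5 without them a median of -0.01 (1 higher, none lower).

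**Figure D3:**
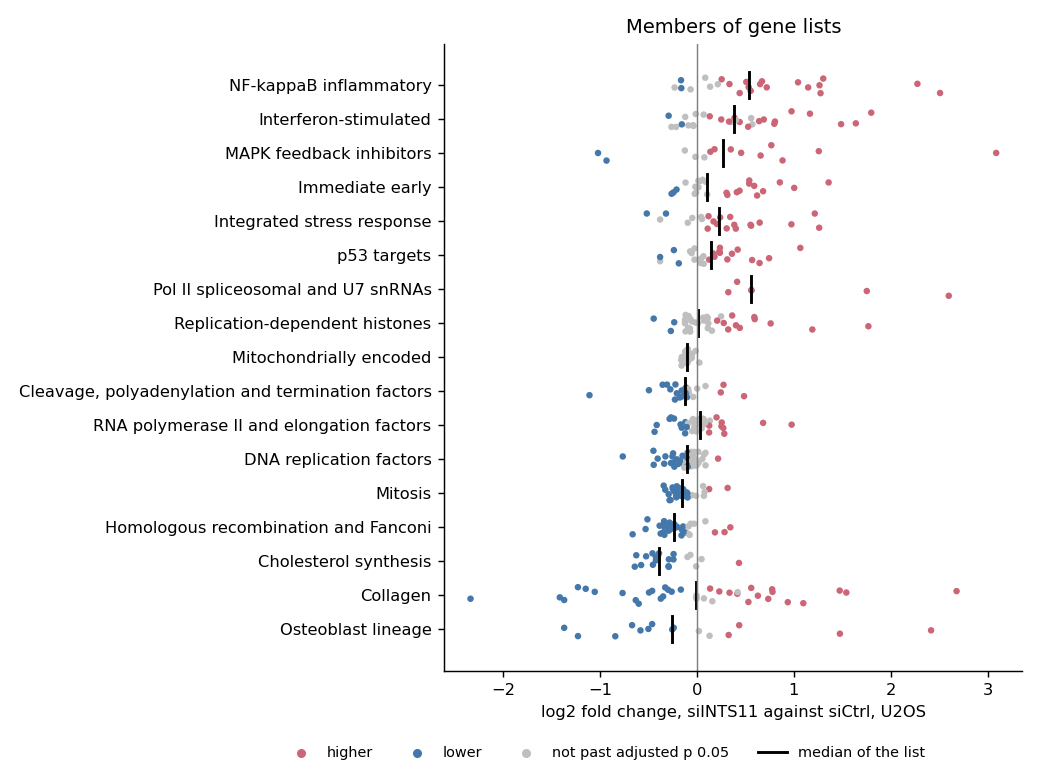
Log2 fold change (siINTS11 against siCtrl, U2OS) of the tested members of 17 gene lists, 1 point per gene, coloured by the edgeR call, with the list's median as a black bar. NF-kappaB (median 0.53) and interferon-stimulated genes (0.39) lie mostly right of 0, cholesterol synthesis (-0.39) and homologous recombination genes (-0.23) mostly left.

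Immediate early genes, the first wave of transcription after a growth signal, had 12 of 25 higher and 3 lower (median 0.11). FOS had 6.32, 5.35 and 4.42 CPM after siCtrl and 10.8, 12 and 9.41 after siINTS11 (log2 fold change 1.00, SE 0.10, edgeR adjusted p = 1.89e-10). Its relative FOSL1 had 53.1, 48.5 and 56.9 CPM after siCtrl and 78.7, 82.3 and 77.3 after siINTS11 (log2 fold change 0.59, SE 0.05, edgeR adjusted p = 2.19e-14). All siINTS11 libraries were higher than all siCtrl libraries for both. ARC, known for synaptic plasticity, had 11.2, 10.9 and 11.6 CPM after siCtrl and 27.2, 30.7 and 28.7 after siINTS11 (log2 fold change 1.36, SE 0.06, edgeR adjusted p = 5.76e-22). ZFP36, an RNA-binding protein that shortens the life of cytokine transcripts, had 6, 6.6 and 6.91 CPM after siCtrl and 12.2, 12 and 11.1 after siINTS11 (log2 fold change 0.86, SE 0.08, edgeR adjusted p = 6.84e-12). The groups were apart in these genes too.

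Feedback inhibitors of the MAP kinase pathway had 9 of 14 higher and 2 lower (median 0.27). The phosphatase gene DUSP7 had 16, 16.4 and 15.1 CPM after siCtrl and 31.3, 28.3 and 28 after siINTS11 (log2 fold change 0.88, SE 0.06, edgeR adjusted p = 1.46e-16). DUSP5, a nuclear phosphatase of ERK, had 20, 18 and 18.2 CPM after siCtrl and 31.1, 32.9 and 31.5 after siINTS11 (log2 fold change 0.77, SE 0.06, edgeR adjusted p = 1.83e-15). Both were higher in every siINTS11 library, and SPRED3, a Ras pathway inhibitor, rose as well (0.66 on the log2 scale). DUSP4 had 0, 3 and 2 counts after siCtrl and 17, 16 and 15 after siINTS11, so it was read almost only after siINTS11 and no fold is given. The 2 called lower were DUSP6 and DUSP8 (-1.02 and -0.93), named as the only such members.

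The integrated stress response is the program that ATF4 drives when translation initiation is held back. Of 22 of its genes, 15 were higher and 2 lower (median 0.22). SLC7A11, given above, was the largest well-read rise of the list, and its partner chain SLC3A2 had 124, 119 and 123 CPM after siCtrl and 160, 164 and 160 after siINTS11 (log2 fold change 0.40, SE 0.04, edgeR adjusted p = 3.93e-12). CHAC1, which degrades glutathione, had 5.82, 5.37 and 5.15 CPM after siCtrl and 11.6, 14.6 and 13 after siINTS11 (log2 fold change 1.26, SE 0.09, edgeR adjusted p = 5.2e-16). DDIT4, an inhibitor of mTORC1, had 7.69, 6.74 and 6.15 CPM after siCtrl and 12.8, 15 and 12.6 after siINTS11 (log2 fold change 0.97, SE 0.09, edgeR adjusted p = 5.56e-13). The siINTS11 libraries were above the siCtrl libraries without overlap in all 4. The ATF4 gene itself did not pass the test (log2 fold change -0.05, edgeR adjusted p = 0.45). The 2 lower members were XBP1 and HSPA5 (-0.52 and -0.32), genes of the endoplasmic reticulum branch of the unfolded protein response. The letters TGATGNAA of the C/EBP-ATF element, either strand, stood in 4 of 20 members with a window against 3.3% of tested genes with a window. CHAC1 is shown because it had the smallest adjusted p of the members holding them, with the match in capitals; the 250 bases lie at chr15:40953221-40953470 (+ strand).
CHAC1: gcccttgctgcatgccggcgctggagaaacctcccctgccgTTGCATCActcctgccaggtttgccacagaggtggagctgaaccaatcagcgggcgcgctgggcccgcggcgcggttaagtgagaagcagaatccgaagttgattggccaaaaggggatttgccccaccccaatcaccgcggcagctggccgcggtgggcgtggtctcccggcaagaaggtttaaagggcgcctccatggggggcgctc

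Of 26 p53 targets, 14 were higher and 3 lower (median 0.15). BBC3, the pro-apoptotic protein PUMA, had 21.4, 19.6 and 20.9 CPM after siCtrl and 32.3, 37.5 and 33.7 after siINTS11 (log2 fold change 0.74, SE 0.06, edgeR adjusted p = 1.06e-14). FDXR, a mitochondrial reductase, had 15, 15.9 and 18 CPM after siCtrl and 25.6, 25.9 and 25 after siINTS11 (log2 fold change 0.65, SE 0.06, edgeR adjusted p = 4.74e-12). DDB2, a UV damage sensor, had 64.1, 62 and 65.1 CPM after siCtrl and 85.5, 85.3 and 85.1 after siINTS11 (log2 fold change 0.42, SE 0.04, edgeR adjusted p = 3.61e-12). These were higher in each siINTS11 library. ZMAT3, an RNA-binding tumour suppressor, went the other way with 197, 204 and 218 CPM after siCtrl and 150, 158 and 168 after siINTS11 (log2 fold change -0.38, SE 0.04, edgeR adjusted p = 3.77e-10). Its groups did not overlap either. CDKN1A, the cell cycle inhibitor p21 (log2 fold change 0.24), was among those called higher, and MDM2 did not pass the test (0.04). Heat shock chaperones had 5 of 13 higher and 2 lower, with DNAJA1, a co-chaperone of HSP70, at 75.1, 76.6 and 73.1 CPM after siCtrl and 118, 114 and 115 after siINTS11 (log2 fold change 0.62, SE 0.04, edgeR adjusted p = 1.07e-17).

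Genes of cholesterol synthesis were mostly lower. Of 21 tested, 16 were lower and 1 higher, with a median of -0.39, and of -0.19 with library totals alone. MSMO1, a sterol oxidase, had 47.7, 44.9 and 43.7 CPM after siCtrl and 28.7, 29.1 and 30.6 after siINTS11 (log2 fold change -0.62, SE 0.05, edgeR adjusted p = 1.36e-14). Every siINTS11 value was under every siCtrl value. STARD4, a carrier of cholesterol, had 50.4, 51 and 50.8 CPM after siCtrl and 35.2, 35 and 35.7 after siINTS11 (log2 fold change -0.52, SE 0.05, edgeR adjusted p = 2.1e-13). SREBF2, the transcription factor that controls the pathway, had 269, 259 and 275 CPM after siCtrl and 201, 203 and 205 after siINTS11 (log2 fold change -0.40, SE 0.04, edgeR adjusted p = 7.34e-12). These were lower in the same way. PMVK was the only member called higher (0.43). The median span of the list was 23.8 kb, under the 39 kb of all protein-coding genes tested.

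Genes of homologous recombination and the Fanconi pathway, which repair broken and cross-linked DNA, had 24 of 33 lower and 3 higher (median -0.23, and -0.03 with library totals alone, where 12 were lower and 8 higher). BARD1, the partner of BRCA1, had 275, 272 and 274 CPM after siCtrl and 177, 161 and 182 after siINTS11 (log2 fold change -0.66, SE 0.04, edgeR adjusted p = 8.68e-18). BRIP1, the helicase FANCJ, had 462, 465 and 496 CPM after siCtrl and 339, 300 and 347 after siINTS11 (log2 fold change -0.53, SE 0.05, edgeR adjusted p = 6.87e-13). Their siINTS11 libraries were all under their siCtrl libraries. BLM, the Bloom syndrome helicase, had 117, 127 and 125 CPM after siCtrl and 99, 91.9 and 92.1 after siINTS11 (log2 fold change -0.38, SE 0.04, edgeR adjusted p = 1.02e-10). RAD54B, a DNA translocase, had 30.8, 30.6 and 30.8 CPM after siCtrl and 20.5, 20.5 and 23.8 after siINTS11 (log2 fold change -0.51, SE 0.06, edgeR adjusted p = 3.51e-10). The groups were apart in these as well. The 3 called higher were XRCC3, FANCE and FANCF (log2 fold changes 0.29, 0.19 and 0.35). The list's median span was 73.3 kb, longer than that of all protein-coding genes. Span moves with this result, and its part in it was not tested.

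Replication factors had 23 of 43 lower and 1 higher (median -0.10) and mitosis genes 22 of 30 lower and 2 higher (-0.16), but both medians turned positive with library totals alone, 0.10 and 0.04, where 20 replication factors were higher and 6 lower, and 11 mitosis genes higher and 4 lower. MCM6, a subunit of the replicative helicase, had 56.5, 59.6 and 52.3 CPM after siCtrl and 34.2, 31.2 and 33.9 after siINTS11 (log2 fold change -0.76, SE 0.05, edgeR adjusted p = 4.6e-17). MCM5 changed less (-0.22) and MCM2, MCM3, MCM4 and MCM7 did not pass the test (from -0.09 to 0.06). RFC3, of the clamp loader (-0.44), and the polymerase genes POLA1 (-0.40) and POLD3 (-0.34) were lower. In mitosis, the kinetochore motor CENPE (-0.34), ASPM (-0.33), ECT2 (-0.29) and the checkpoint kinase BUB1B (-0.28) were lower on the log2 scale.

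Among factors of RNA polymerase II itself, 9 of 38 were higher and 10 lower (median 0.04), and with library totals alone 28 were higher and 2 lower (median 0.23). HEXIM1, which holds the elongation kinase P-TEFb inactive, had 11.4, 11.4 and 10.9 CPM after siCtrl and 22.7, 22.7 and 21 after siINTS11 (log2 fold change 0.98, SE 0.07, edgeR adjusted p = 9.27e-17). MEPCE, the capping enzyme of the 7SK RNA in the same inactive complex, had 26.9, 25.7 and 23.3 CPM after siCtrl and 41.1, 41.2 and 39.7 after siINTS11 (log2 fold change 0.68, SE 0.05, edgeR adjusted p = 5.65e-15). Both were higher in every siINTS11 library. ELL2, a subunit of the super elongation complex, had 245, 232 and 235 CPM after siCtrl and 174, 168 and 184 after siINTS11 (log2 fold change -0.44, SE 0.04, edgeR adjusted p = 1.88e-12). CDC73, of the PAF1 complex, had 167, 168 and 171 CPM after siCtrl and 137, 133 and 147 after siINTS11 (log2 fold change -0.28, SE 0.04, edgeR adjusted p = 7.87e-08). These were lower in every siINTS11 library. The 3 other genes of the P-TEFb and 7SK group on the list, CDK9, LARP7 and CCNT1, had log2 fold changes of -0.05, 0.02 and 0.13, and of these CCNT1 passed the test; they were chosen after the values were seen.

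Cleavage, polyadenylation and termination factors had 17 of 25 lower and 3 higher (median -0.12, turning to 0.08 with library totals alone, where 9 were higher and 4 lower). CSTF3, a subunit of the cleavage stimulation factor, had 214, 221 and 226 CPM after siCtrl and 156, 156 and 158 after siINTS11 (log2 fold change -0.49, SE 0.04, edgeR adjusted p = 1.15e-14). PCF11, which joins polyadenylation to termination, had 95.5, 93.7 and 90.6 CPM after siCtrl and 71, 74.8 and 73.3 after siINTS11 (log2 fold change -0.35, SE 0.04, edgeR adjusted p = 3.96e-10). No siINTS11 library of these genes reached a siCtrl library. CPSF1, the largest subunit of the cleavage factor, had 5.96, 3.79 and 4.53 CPM after siCtrl and 1.95, 2.58 and 2.01 after siINTS11 (log2 fold change -1.11, SE 0.15, edgeR adjusted p = 7.58e-08). It was lower without overlap between the groups, and it shares its strand with another gene. The nuclease CPSF3, a relative of INTS11, was called lower by a small amount (-0.12).

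Small nuclear RNAs are classical products of Integrator, but few could be read here. Of 25 Pol II snRNA genes listed, 6 passed the low-count filter, and all 6 were called higher (log2 fold changes from 0.32 to 2.60). Of all genes tested 34.5% were called higher, and of those that are not protein-coding 48.1%. All 6 snRNA genes were read at over 0.1 reads per base (median 0.671), and an effect of dense reading on their differences was not tested. RNU1-1 had 11, 9 and 11 counts after siCtrl and 40, 33 and 39 after siINTS11 (log2 fold change 1.75, SE 0.26, edgeR adjusted p = 1.81e-07). RNU4-2 had 2.89, 2.39 and 2.25 CPM after siCtrl and 3.58, 3.69 and 3.81 after siINTS11 (log2 fold change 0.56, SE 0.13, edgeR adjusted p = 0.000205). RNU5D-1 had 1, 18 and 10 counts after siCtrl and 57, 60 and 71 after siINTS11. These genes have near-identical copies and hold few counts, so their values are uncertain, and with DESeq2 4 of the 6 were called. Reads past the 3′ end of the mature snRNA fall outside these gene spans and are not counted. Of 13 Pol III small RNAs, 2 were higher in edgeR and none in DESeq2 (RNY1 0.59 and RNU6-8 0.49).

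Replication-dependent histone genes, whose transcripts end in a stem-loop rather than a poly(A) tail, had 11 of 39 higher and 3 lower with a median of 0.01, and 17 higher and 1 lower with library totals alone (median 0.21). H2BC4 had 28, 23.1 and 25.5 CPM after siCtrl and 53.7, 59.4 and 61.1 after siINTS11 (log2 fold change 1.19, SE 0.06, edgeR adjusted p = 9.62e-19). H2BC11, another H2B gene, had 44.9, 37.4 and 42 CPM after siCtrl and 64.5, 71.3 and 74.3 after siINTS11 (log2 fold change 0.76, SE 0.06, edgeR adjusted p = 6.72e-12). H4C8 had 28.9, 23.8 and 26.2 CPM after siCtrl and 36, 40.8 and 41.6 after siINTS11 (log2 fold change 0.59, SE 0.06, edgeR adjusted p = 2.78e-10). The counted spans of H2BC4, H2BC11 and H4C8 were 9.05, 6.85 and 8.03 kb, against a list median of 0.53 kb. Their reads thus cover far more than the usual span of the list, and where in the span the added reads lie is not known. The groups were apart in the 3 genes, and 30 of the 39 were read at over 0.1 reads per base (at most 0.972 for any gene over 1 kb); whether dense reading alters their differences was not tested. Ribosomal protein genes had 10 of 74 higher and 4 lower (median 0.02), or 66 higher and none lower with library totals alone (median 0.22), with RPL39 the largest of those named (0.26). None of 27 mitochondrially encoded genes passed the test, in edgeR or in DESeq2. None had an unadjusted p under 0.05 in edgeR either, and their median was -0.10. Over 0.1 reads per base were also 63 of the 74 ribosomal protein genes and all 27 mitochondrially encoded genes. An effect of dense reading on their differences was not tested either.

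Gene families of the cell surface changed in both directions, as did all protein-coding genes tested (28.1% higher and 39.1% lower). Near these shares lay cadherins (28.6% and 42.9%), phosphodiesterases (25% and 40%) and solute carriers (33.8% and 40%), described below. Potassium channels (43.3% and 26.7%) did not. A count near the shares of all genes is not a result about the family. Of 41 neuronal and synaptic adhesion genes, 14 were higher and 20 lower (median -0.19, and 0.01 with library totals alone), and their summed level was 8439, 8329 and 9051 CPM after siCtrl and 6164, 6039 and 6412 after siINTS11. The list's median span was 1118 kb. In the longest decile of protein-coding genes, from 202 kb, 18.5% were higher and 65.2% lower, beside 34.1% and 48.8% of this list. The part of span was not tested. UNC5C, a netrin receptor, had 18.2, 18.3 and 16.6 CPM after siCtrl and 5.01, 4.88 and 3.84 after siINTS11 (log2 fold change -1.95, SE 0.09, edgeR adjusted p = 7.5e-23). CNTN4, a contactin, had 95.4, 90.9 and 98.2 CPM after siCtrl and 36.4, 41.4 and 41 after siINTS11 (log2 fold change -1.26, SE 0.05, edgeR adjusted p = 1.77e-25). DLG2, a synaptic scaffold, had 816, 866 and 803 CPM after siCtrl and 388, 353 and 415 after siINTS11 (log2 fold change -1.10, SE 0.05, edgeR adjusted p = 5.1e-22). In each, siINTS11 libraries were lower without overlap. NLGN4X, a neuroligin, had 88.9, 99.5 and 94.7 CPM after siCtrl and 37.7, 41.3 and 42.3 after siINTS11 (log2 fold change -1.23, SE 0.05, edgeR adjusted p = 6.13e-25). It was lower in the same way. The members named here all fell, while the 14 higher members reached at most 0.85 on the log2 scale.

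Among cadherins and unclustered protocadherins 8 of 28 were higher and 12 lower. CDH11, osteoblast cadherin, had 135, 139 and 132 CPM after siCtrl and 53.1, 55.3 and 59 after siINTS11 (log2 fold change -1.28, SE 0.04, edgeR adjusted p = 1.41e-27). CDH12 had 230, 249 and 226 CPM after siCtrl and 101, 86.4 and 99.7 after siINTS11 (log2 fold change -1.30, SE 0.05, edgeR adjusted p = 1.79e-20). PCDH7 rose with 17.6, 17.9 and 16.2 CPM after siCtrl and 37.3, 34.9 and 37.5 after siINTS11 (log2 fold change 1.08, SE 0.06, edgeR adjusted p = 1.69e-20). The groups were apart in the 3 genes. Of 60 potassium channel genes 26 were higher and 16 lower (median 0.22). KCNS3, a silent subunit that joins other channel subunits, had 38.5, 39.7 and 38.9 CPM after siCtrl and 11.2, 11.4 and 11.1 after siINTS11 (log2 fold change -1.79, SE 0.06, edgeR adjusted p = 8.25e-28). It lay lower in every siINTS11 library. KCNN3, a calcium-activated channel, rose from a low level, with 0.65, 0.446 and 0.553 CPM after siCtrl and 2.74, 2.68 and 3.13 after siINTS11 (log2 fold change 2.39, SE 0.19, edgeR adjusted p = 2.07e-14).

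Phosphodiesterases, which break down cyclic nucleotides, had 5 of 20 higher and 8 lower. PDE5A, specific for cyclic GMP, had 61.6, 63.1 and 62.9 CPM after siCtrl and 17.6, 16.7 and 17.6 after siINTS11 (log2 fold change -1.85, SE 0.05, edgeR adjusted p = 1.11e-30). PDE9A, which also degrades cyclic GMP, had 18.1, 22.2 and 20.4 CPM after siCtrl and 8.65, 8.19 and 8.36 after siINTS11 (log2 fold change -1.27, SE 0.08, edgeR adjusted p = 1.26e-18). The siINTS11 libraries were far under the siCtrl libraries in both. PDE10A had 426, 407 and 430 CPM after siCtrl and 232, 244 and 249 after siINTS11 (log2 fold change -0.80, SE 0.04, edgeR adjusted p = 1.09e-20). PDE2A had 43, 43.4 and 45.7 CPM after siCtrl and 68.9, 70.7 and 72.2 after siINTS11 (log2 fold change 0.68, SE 0.04, edgeR adjusted p = 1.2e-17). PDE10A was lower and PDE2A higher in every siINTS11 library, and GUCY1A2, a subunit of the cyclase that makes cyclic GMP, was among the largest falls above. WNT ligands had 3 of 12 higher and 4 lower. WNT5B had 148, 136 and 153 CPM after siCtrl and 56.1, 65.2 and 67.2 after siINTS11 (log2 fold change -1.21, SE 0.05, edgeR adjusted p = 4.6e-15). WNT7B had 3.47, 2.81 and 2.97 CPM after siCtrl and 13.1, 14.6 and 13.8 after siINTS11 (log2 fold change 2.17, SE 0.10, edgeR adjusted p = 5.06e-23). WNT7A had 8.02, 6.01 and 6.22 CPM after siCtrl and 16.5, 16.1 and 17.1 after siINTS11 (log2 fold change 1.30, SE 0.08, edgeR adjusted p = 2.65e-17). WNT5B was lower and the others higher, all without overlap. Of 13 FGF ligands 6 were higher and 4 lower, with FGF2 at -0.60 and FGF1 at 0.32 on the log2 scale, and of 12 BMP and GDF ligands 3 and 3, with BMP5 at -0.53, BMP4 at -0.50 and GDF11 at 0.83.

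HOX genes, which encode position along the body axis, had 8 of 21 higher and 8 lower (median 0.13). HOXA3 had 4.48, 5.29 and 4.56 CPM after siCtrl and 10.5, 10.3 and 9.63 after siINTS11 (log2 fold change 1.07, SE 0.09, edgeR adjusted p = 1.49e-13). HOXD10 had 27, 25.8 and 25.3 CPM after siCtrl and 15.9, 15.8 and 16.4 after siINTS11 (log2 fold change -0.70, SE 0.06, edgeR adjusted p = 1.1e-13). HOXC4 had 19.5, 17.4 and 16.9 CPM after siCtrl and 10, 12.1 and 11.1 after siINTS11 (log2 fold change -0.70, SE 0.07, edgeR adjusted p = 7.4e-11). The groups did not overlap in these, and HOXA3 went opposite to the others; same-strand overlaps within the clusters make single genes uncertain. Zinc finger genes with ZNF names had 93 of 403 higher and 132 lower (median -0.02), or 215 higher and 57 lower with library totals alone (median 0.18), among them ZNF704 (-0.91) and ZNF280D (-1.59). Solute carriers had 81 of 240 higher and 96 lower (median -0.04), or 124 higher and 59 lower with library totals alone (median 0.16), with SLC22A14 (-1.74) and SLC16A7 (-1.05) lower. Among targets of YAP and TGF-beta signalling 4 of 22 were higher and 8 lower (median -0.05), or 12 higher and 3 lower with library totals alone (median 0.15), with LATS2 (-0.38) and SMAD6 (-0.32) lower and ID2 (0.69) and TGFBI (0.50) higher.

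The largest rise of any gene tested was of a non-coding gene. CES1P2, a pseudogene of a carboxylesterase (chr16:55728115-55750111), had 0.0722, 0.195 and 0.173 CPM after siCtrl and 11.2, 10.5 and 9.84 after siINTS11 (log2 fold change 6.08, SE 0.19, edgeR adjusted p = 1.9e-28). This rests on 2 to 7 counts per siCtrl library and 318 to 385 per siINTS11 library. Reads from near-identical family members may be counted here. The antisense gene AP003119.1 had 0.253, 0.473 and 0.207 CPM after siCtrl and 4.8, 5.07 and 4.67 after siINTS11 (log2 fold change 3.89, SE 0.20, edgeR adjusted p = 4.48e-21). SH3PXD2A-AS1 had 0.542, 0.334 and 0.345 CPM after siCtrl and 4.13, 4.44 and 4.24 after siINTS11 (log2 fold change 3.40, SE 0.19, edgeR adjusted p = 1.02e-19). The groups were far apart in all 3. LINC01564 (3.52) and LINC02004 (3.44) complete the 5 largest rises of non-coding genes with at least 100 counts on average after siINTS11. In the other direction, among non-coding genes with at least 100 counts on average after siCtrl, LINC01170 had 32.5, 34.1 and 35.8 CPM after siCtrl and 3.81, 5.67 and 4.74 after siINTS11 (log2 fold change -2.85, SE 0.08, edgeR adjusted p = 4.2e-27), followed by AC025465.1 (-2.73), AC096639.1 (-2.69), AC012178.1 (-2.56) and LINC02749 (-2.54).

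By name class, 387 of 662 antisense genes (AS) were higher and 86 lower (median 0.42), and 420 of 804 intergenic LINC genes were higher and 170 lower (median 0.42). Of all tested genes that are not protein-coding, 48.1% were higher and 18.4% lower. PAX8-AS1 had 5.67, 4.48 and 4.91 CPM after siCtrl and 19.9, 20 and 20.2 after siINTS11 (log2 fold change 2.01, SE 0.08, edgeR adjusted p = 2.72e-24). NR2F2-AS1 had 27, 29.2 and 29.1 CPM after siCtrl and 65.8, 62.4 and 65.8 after siINTS11 (log2 fold change 1.18, SE 0.05, edgeR adjusted p = 1.51e-24). PARD6G-AS1 had 43.5, 44.4 and 45.9 CPM after siCtrl and 20, 19.5 and 18.9 after siINTS11 (log2 fold change -1.19, SE 0.05, edgeR adjusted p = 3.11e-23). The first 2 were higher and the last lower in every library. LINC00910 had 34.2, 35.7 and 34.7 CPM after siCtrl and 120, 129 and 124 after siINTS11 (log2 fold change 1.83, SE 0.04, edgeR adjusted p = 1.25e-32). LINC01524 had 25, 26.1 and 28.4 CPM after siCtrl and 93.2, 100 and 97.2 after siINTS11 (log2 fold change 1.87, SE 0.05, edgeR adjusted p = 1.36e-31). LINC02863 had 2.24, 2.03 and 1.62 CPM after siCtrl and 17.1, 18.5 and 17.2 after siINTS11 (log2 fold change 3.16, SE 0.10, edgeR adjusted p = 5.89e-28). All 3 were apart and higher. MicroRNA host genes had 23 of 39 higher and 8 lower (median 0.20). MIR3142HG had 2.28, 2.14 and 2.11 CPM after siCtrl and 8.39, 8.48 and 8.14 after siINTS11 (log2 fold change 1.94, SE 0.11, edgeR adjusted p = 2.22e-19). MIR924HG fell with 499, 522 and 541 CPM after siCtrl and 293, 278 and 307 after siINTS11 (log2 fold change -0.83, SE 0.04, edgeR adjusted p = 1.36e-20). Host genes of small nucleolar RNAs (SNHG) had 9 of 23 higher and 5 lower, with SNHG29 higher (0.44) and SNHG18 lower (-1.41). The strand setting of the counts is not given in the sources used here, so reads of an antisense gene and of its partner might not be separated.

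Divergent transcripts start upstream of a protein-coding gene and run away from it on the other strand; those with a DT name are annotated as such. Of 96 tested DT genes 57 were higher and 10 lower (median 0.49). Over all tested genes that are not protein-coding, 48.1% were higher and 18.4% lower (median 0.32). Over protein-coding genes, 28.1% were higher and 39.1% lower (median -0.05). For 89 of the DT genes the partner was also tested: DT genes had a median log2 fold change of 0.47 and partners -0.21, and the DT gene was above its partner in 76 of 89 pairs. Whether these pairs differ by more than the 2 classes of genes do was not tested. In 24 pairs the DT gene was higher and the partner lower, in 13 both were higher, in 8 both lower and in none was the DT gene lower and the partner higher. The start sites lay a median of 182 bases apart, with 82 of the 89 pairs within 1000 bases and 31 pairs overlapping at their 5′ ends. METTL14 and METTL14-DT illustrate the layout: the bases between their starts are in capitals within the 250 bases before METTL14 (chr4:118685142-118685391 (+ strand), RefSeq GRCh38.p14).
METTL14: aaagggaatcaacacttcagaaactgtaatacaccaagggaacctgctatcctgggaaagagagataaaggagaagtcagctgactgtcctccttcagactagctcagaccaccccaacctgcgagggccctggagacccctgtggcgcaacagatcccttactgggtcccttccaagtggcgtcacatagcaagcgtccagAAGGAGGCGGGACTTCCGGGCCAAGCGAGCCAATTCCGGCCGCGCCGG
The starts of both transcripts lie just outside these 48 bases, 1 on each side. METTL14-DT had 1.48, 1.31 and 1.69 CPM after siCtrl and 3.99, 3.53 and 3.34 after siINTS11 (log2 fold change 1.29, SE 0.15, edgeR adjusted p = 3.34e-10). METTL14, an RNA methyltransferase subunit, had 44.3, 45.1 and 44.8 CPM after siCtrl and 40.1, 36.6 and 39.5 after siINTS11 (log2 fold change -0.21, SE 0.05, edgeR adjusted p = 0.000217). The libraries were apart for both, in opposite directions. MAP3K2-DT had 4.73, 5.54 and 5.11 CPM after siCtrl and 14.2, 13.6 and 15 after siINTS11 (log2 fold change 1.47, SE 0.09, edgeR adjusted p = 4.99e-19). Its partner MAP3K2, a kinase of the MAP kinase cascade, had 209, 207 and 211 CPM after siCtrl and 216, 210 and 227 after siINTS11 (edgeR adjusted p = 0.202). The DT libraries were apart and those of the kinase gene overlapped. MRPS30-DT had 3.43, 3.62 and 3.59 CPM after siCtrl and 8.24, 8.29 and 8.64 after siINTS11 (log2 fold change 1.24, SE 0.10, edgeR adjusted p = 1.41e-14) beside a mitoribosome gene, MRPS30, that did not pass the test (-0.07). ODC1-DT rose (1.09) with ODC1, the first enzyme of polyamine synthesis (0.29). EDIL3-DT and EDIL3, an extracellular integrin ligand, fell together. EDIL3-DT had 75.2, 72.5 and 67.6 CPM after siCtrl and 33.4, 37.2 and 39.9 after siINTS11 (log2 fold change -0.96, SE 0.05, edgeR adjusted p = 8.79e-18). EDIL3 had 1971, 1792 and 1808 CPM after siCtrl and 967, 968 and 1106 after siINTS11 (log2 fold change -0.87, SE 0.05, edgeR adjusted p = 4.05e-18). Neither had overlapping groups.

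**Figure D4:**
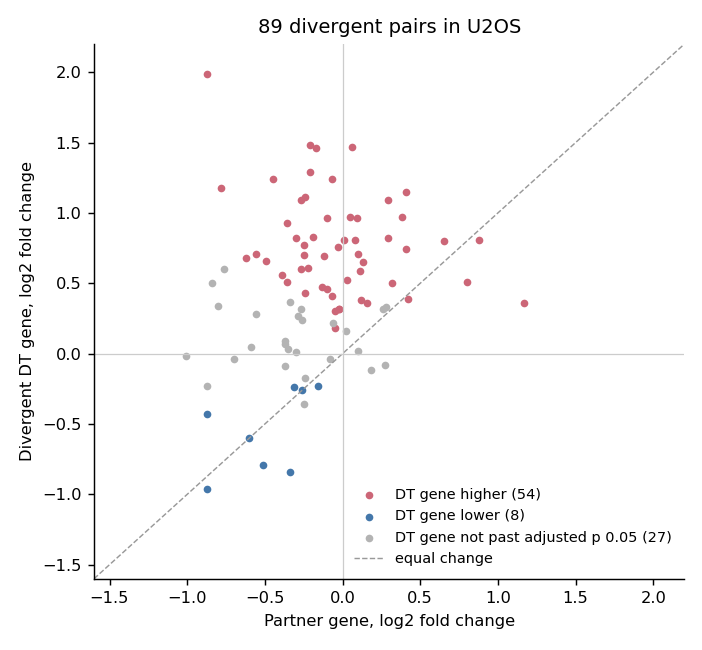
Log2 fold change of each divergent DT gene (vertical) against that of its partner (horizontal) for 89 pairs, coloured by the edgeR call of the DT gene, with the line of equal change. The DT gene lies above the line in 76 pairs, and in 24 it is called higher while its partner is called lower. Over all tested genes the median was 0.32 for those that are not protein-coding and -0.05 for protein-coding ones.

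Some changes ran over neighbouring genes. In 12 places at least 4 tested genes in a row along a chromosome all rose by 2-fold or more, and in 1 place at least 4 fell. Untested genes between them were passed over. Of all genes tested 9.62% rose and 3.24% fell 2-fold, and of those that are not protein-coding 19% and 4.47%. Weakly read members could also be tested because they were read after siINTS11, so the surplus of rising runs is not free of the filter. The run with the most genes, chr1:234629311-234980804, held 8 non-coding genes and no protein-coding gene, with log2 fold changes from 1.02 to 3.18; the largest rise, LINC01132, rested on 2, 3 and 1 counts after siCtrl and 21, 26 and 14 after siINTS11. The run of 6 on chr10:5035354-5288470 had log2 fold changes between 1.20 and 1.54. It covered AKR1C3, an aldo-keto reductase of steroids, the pseudogene names AKR1C5P, AKR1C7P and AKR1C8P, and 2 non-coding genes. AKR1C3 had 3.14, 3.06 and 2.56 CPM after siCtrl and 7.69, 7.31 and 8.08 after siINTS11 (log2 fold change 1.39, SE 0.11, edgeR adjusted p = 5.22e-15). AKR1C7P had 7.37, 5.68 and 6.87 CPM after siCtrl and 17.6, 20 and 19.8 after siINTS11. The groups were apart in both, but these genes are near-identical copies and reads may be split among them. A run of 5 genes on chr14:100879753-101077910 lies in an imprinted locus. Its gene RTL1, of retrotransposon origin, had 0.181, 0.334 and 0.484 CPM after siCtrl and 1.78, 2.05 and 2.63 after siINTS11 (log2 fold change 2.67, SE 0.25, edgeR adjusted p = 1.85e-12). MEG8, an lncRNA gene, had 12.4, 11.5 and 11.4 CPM after siCtrl and 30.1, 29.2 and 30.3 after siINTS11 (log2 fold change 1.35, SE 0.06, edgeR adjusted p = 1.67e-22). RTL1 lies on the opposite strand to MEG8, and both were higher in every siINTS11 library, as were MEG9 (1.82) and MIR381HG (1.11). The run on chr8:39314591-40897833 spanned ZMAT4 with 9.07, 10.2 and 9.19 CPM after siCtrl and 20.4, 18 and 21.2 after siINTS11 (log2 fold change 1.06, SE 0.08, edgeR adjusted p = 2.74e-16) and 4 weakly read neighbours. The single run of falls, on chr22:25212564-25339975, held the lens crystallin gene CRYBB2 and 3 non-coding neighbours between -1.28 and -1.21. CRYBB2 had 3.97, 3.95 and 3.83 CPM after siCtrl and 1.48, 1.39 and 1.58 after siINTS11 (log2 fold change -1.40, SE 0.14, edgeR adjusted p = 8.55e-12), with the groups apart.

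Beyond these runs, the next tested gene on the same strand within 50 kb downstream was described by its upstream neighbour. After 672 genes that rose 2-fold, 130 of the next genes rose 2-fold (19.3%) and 8 fell 2-fold (1.19%), with a median of 0.22. After 210 genes that fell 2-fold, 9 rose (4.29%) and 35 fell (16.7%), with a median of -0.18. After 8191 genes that did neither, 7.08% rose and 3.39% fell, with a median of 0.01. When both genes were protein-coding, 24 of 252 rose after a riser (9.52%) and 2 fell, against 4.63% and 2.09% after genes that did neither. Next genes were a median of 15.2 kb from a riser and 12.4 kb from a gene that did neither. Neighbours share the same 6 libraries and often the same chromatin, so these shares are a description.

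**Figure D5:**
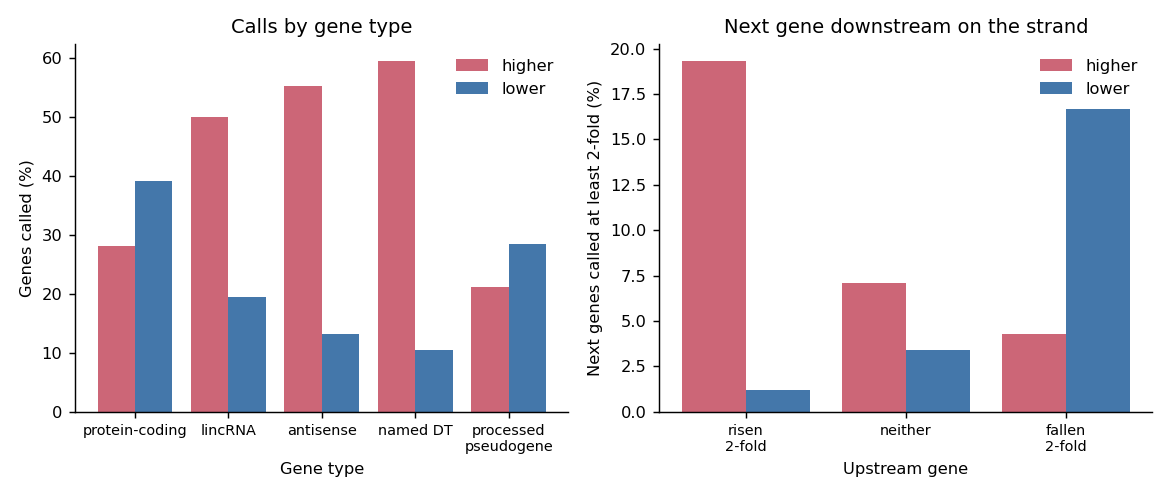
Left, the percentage of tested genes called higher or lower by gene type. Right, the percentage of next downstream genes (same strand, within 50 kb) that rose or fell by 2-fold, by what the upstream gene did. Antisense and DT genes are mostly higher, protein-coding genes more often lower, and 19.3% of genes after a riser rose 2-fold against 7.08% after genes that did neither.

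The siINTS11 effect in these cells was set against that in U2OS-AsiSI cells treated with OHT by an interaction term in edgeR over all 12 libraries, where 3.87% of 21521 genes differed past an adjusted p of 0.05. Fold changes are from the fit within each line and differences from the joint fit, which scales all libraries together. Of 191 genes named here and tested in both lines, 21 differed. Most of them were named for their U2OS values, so this share is not comparable with that of all genes. BBC3 (U2OS log2 fold change 0.74, U2OS-AsiSI 0.23, difference -0.55, SE 0.08, adjusted p = 0.000153) and FDXR (0.65 against 0.05, difference -0.63, SE 0.09, adjusted p = 0.000153) rose less in the other line, and so did BIRC3 (1.15 against 0.64, adjusted p = 0.0148). GUCY1A2 fell by more there (-2.28 against -2.72, adjusted p = 0.000683) and XKR4 by less (-2.05 against -1.70, adjusted p = 0.0103). The lines also differ in OHT and nuclease, so line, drug and DNA breaks cannot be told apart in these differences.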

How the data were processed

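Nascent RNA of 6 U2OS libraries (3 siCtrl, 3 siINTS11) was analysed, with 6 U2OS-AsiSI libraries for differences between the lines. Per the labels, RNA was fragmented, thiol-labelled pieces were captured and directional libraries made. The authors deposited raw read counts per gene, in the featureCounts layout per the file headers. Trimmomatic 0.36, STAR 2.7, deepTools, featureCounts and build hg38 are named in the submitters' processing notes; the strand setting and duplicate handling are not given in the sources used here. Counts cover the whole gene span, introns included.

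Counts were tested with edgeR 4.0.16 (R 4.3.3; filterByExpr, TMM, robust quasi-likelihood, Benjamini-Hochberg over 20687 genes, threshold 0.05). SE is the absolute log2 fold change divided by the square root of F. On simulated counts with known 2-fold changes the test recovered 99.5% of the changed genes. There only a small share of genes changed, as many up as down, all with a mean of at least 50 counts. In the data 66.9% of genes were called, so the recovery does not carry over to them or to sparsely read genes. Gene types came from GENCODE release 29, matched by symbol for 93.3% of 60583 genes. Replicate libraries differed by more than sampling noise (chi-square per degree of freedom 2.99 for siCtrl and 2.05 for siINTS11). Each library was counted as 1, but technical spread can also give such values, so they do not show separate cultures.

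Named genes were every Integrator subunit; the 10 largest coding and 5 largest other rises and falls among called genes with at least 100 mean counts in the higher group and no overlap; the 5 largest each way with at least 1000 counts in the lower group; up to 4 called members per list by adjusted p; runs of at least 4 neighbours; and the 5 DT genes with the smallest adjusted p. Some genes that these rules name are not reported here. The members and lists were chosen with earlier results of these data known. Lists are described by counts and medians, without a set test. Alternatives were DESeq2 1.42.0, other scalings, filters, the replicate block and leaving out each library.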

Additional observations from a re-analysis of the deposited data

Results flagged for a closer look

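For 21 of the 191 genes named here the siINTS11 effect differed between the lines, by the interaction test in edgeR at an adjusted p under 0.05, beside 3.87% of all 21521 genes tested. Each value is the log2 fold change in U2OS-AsiSI minus that in U2OS, from the joint fit. Among genes that rose in U2OS, the effect was smaller in U2OS-AsiSI for the p53 targets FDXR (-0.63), BBC3 (-0.55) and DDB2 (-0.34), and for S100A4 (-0.56), AKR1C8P (-0.55), BIRC3 (-0.54), HOXA3 (-0.50), SLCO2B1 (-0.49), MEG8 (-0.39), PTCHD4 (-0.35), INKA2 (-0.33) and INTS13 (-0.26). It was larger for DUSP5 (0.26). Among genes that fell in U2OS, the fall was deeper in U2OS-AsiSI for GUCY1A2 (-0.48), BMP5 (-0.39), EDIL3-DT (-0.39), EDIL3 (-0.31), RUNX2 (-0.26) and ZMAT3 (-0.26), and shallower for ELL2 (0.33) and XKR4 (0.32). The call of a difference was lost under another scaling or the replicate block for 8 of these genes, DUSP5, HOXA3, INTS13, PTCHD4, RUNX2, S100A4, SLCO2B1 and ZMAT3. Line, OHT and nuclease cannot be told apart. Groups of 3 libraries are too small for a check of single outlying libraries.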

How the results depend on the processing

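Of 2730 alternative values for the 191 named genes, 2694 kept their direction and their side of the threshold, 19 lost the call, 4 gained it and 13 changed sign. The sign changes were of small values: with library totals alone the log2 fold change became 0.13 for INTS10, 0.04 for INTS12, 0.16 for INTS14, 0.07 for INTS3, 0.07 for INTS4, 0.15 for INTS7, 0.02 for INTS8, 0.08 for INTS9 and 0.13 for MRPS30. It became 0.01 for INTS14 with a mean count of at least 50, 0.02 for INTS14 and 0.01 for INTS7 with protein-coding genes only, and INTS3 ranged from -0.29 to 0.12 when 1 library was left out.

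The split between higher and lower calls moved most with the scaling. With library totals alone 10968 genes were higher and 3799 lower, in place of 7140 and 6706, and the medians of 15 of 53 lists changed sign; under other settings the medians of 14 lists did, most often those of collagens (8 settings in all) and replication-dependent histones (6), which lie near 0. With genes that have no overlap on their strand, 4460 were lower, since fewer genes were tested. Changes of at least 2-fold numbered 1180 with a mean count of at least 50 and 1118 with protein-coding genes only, against 2661, again over fewer genes. The correlation of span and log2 fold change was -0.40 with a mean count of at least 50. DESeq2 called 12101 genes, 5865 higher and 6236 lower. Leaving out 1 library gave 12884 to 13916 calls, 6630 to 7348 higher, 6187 to 6568 lower, 2711 to 2981 changed 2-fold and a span correlation of -0.37 to -0.32.

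The replicate numbers gave no sign of pairing: deviations of same-numbered siCtrl and siINTS11 libraries correlated at -0.035, -0.062 and 0.023. With the replicate block 13700 genes were called, 7030 higher and 6670 lower, 2661 by 2-fold or more, with a span correlation of -0.34.

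Depth limits sparsely read genes, and 1635 genes (7.9%) were read above 0.1 reads per base, where an effect of dense reading on the differences was not tested.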
